A study of Mus musculus with 10 samples.

Results

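The 37 genes of the mouse mitochondrial chromosome were followed in RNAseq of interscapular brown adipose tissue (iBAT). They are all genes that the count files place on chromosome M, 37 of 55414 genes, and comprise 13 protein genes, 2 rRNA genes and 22 tRNA genes. RNA came from 5 Cre- and 5 Cre+ male C57BL/6J mice, aged 12 to 14 weeks and kept on normal chow. All 10 mice carried floxed alleles of the retinol saturase gene RetSat, and the Cre+ mice also carried Cre under the Ucp1 promoter, which is active in brown adipocytes, so other cells of the tissue keep RetSat. The question was which transcripts differ in iBAT when RetSat, an oxidoreductase of the endoplasmic reticulum, is deleted in brown adipocytes. Nothing in the labels says more about how the mice of a genotype are related, so p-values measure the spread between these 10 samples.

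The deleted gene itself, RetSat, stood at 185 ± 42.3 CPM in the Cre- group and at 23.9 ± 8.63 CPM in the Cre+ group (SD, n = 5 each), where CPM are counts scaled to the library size after TMM normalization. The total count ranged between 91903095 and 132499312 in Cre- and between 96991071 and 110293494 in Cre+ mice. None of the genes in the lists of brown adipocyte, skeletal muscle, macrophage, B cell, endothelial, white adipocyte, and neural and Schwann cell markers was at 0 in all mice, and edgeR called 0 of them. The summed level of the 10 brown adipocyte markers was 9324 to 11554 CPM across Cre- and 9568 to 12248 CPM across Cre+ mice. The summed level of the 12 skeletal muscle markers reached 577 CPM in Cre- replicate 2 and 286 CPM in Cre+ replicate 4, and was at most 22.1 CPM in the other mice. In whole tissue, fewer cells of a type and less RNA per cell cannot be told apart.

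Mitochondria keep a small circular chromosome whose protein genes encode core subunits of respiratory complexes I, III and IV and of ATP synthase, while all other subunits come from the nucleus. Both strands are transcribed into long precursors, from which tRNAs are cut out between the rRNAs and mRNAs, and most mRNAs then receive a short poly(A) tail. Brown adipocytes are packed with mitochondria, and their respiratory chain drives heat production through the uncoupling protein UCP1.

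The genes are packed end to end on chromosome M of GRCm39, from base 1 to base 15422. Of 36 pairs of neighbours, 9 overlap and 12 abut with no base between them. The plus strand holds 28 genes, namely 12 protein genes, both rRNA genes and 14 tRNA genes, and the minus strand holds mt-Nd6 and 8 tRNA genes. Sequences were taken from GENCODE M21, in which all 37 genes have the same positions as in the files. Transfer RNAs carry an anticodon that reads the codon of their amino acid, and the 7 tRNAs shown are those with the lowest or highest counts or with calls, each with its anticodon in capitals.
mt-Tm (methionine, chrM:3845-3913, plus strand): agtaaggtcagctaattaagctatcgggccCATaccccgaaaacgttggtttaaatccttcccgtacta
mt-Te (glutamate, chrM:14071-14139, minus strand): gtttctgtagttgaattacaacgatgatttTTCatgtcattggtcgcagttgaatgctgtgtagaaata
mt-Tl1 (leucine, chrM:2676-2750, plus strand): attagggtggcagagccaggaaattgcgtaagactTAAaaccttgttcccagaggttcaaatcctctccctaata
mt-Tf (phenylalanine, chrM:1-68, plus strand): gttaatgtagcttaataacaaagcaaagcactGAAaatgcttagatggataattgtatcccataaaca
mt-Tv (valine, chrM:1025-1093, plus strand): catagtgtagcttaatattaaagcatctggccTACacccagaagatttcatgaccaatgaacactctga
mt-Td (aspartate, chrM:6942-7011, plus strand): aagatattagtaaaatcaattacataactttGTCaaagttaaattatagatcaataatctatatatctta
mt-Tk (lysine, chrM:7700-7764, plus strand): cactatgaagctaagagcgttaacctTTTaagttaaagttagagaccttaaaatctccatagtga

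The packing reaches into the reading frames. mt-Co3, mt-Nd4 and mt-Cytb have lengths of 784, 1378 and 1144 bases, which leave 1 base after the last whole codon, and their stop codon is completed only when the poly(A) tail is added. Their last 30 bases are shown with that final base in capitals.
mt-Co3 (chrM:9361-9390, plus strand): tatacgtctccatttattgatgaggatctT
mt-Nd4 (chrM:11515-11544, plus strand): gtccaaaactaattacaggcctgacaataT
mt-Cytb (chrM:15259-15288, plus strand): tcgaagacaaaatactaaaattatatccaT
mt-Atp8 and mt-Atp6, which encode subunits of ATP synthase, share 43 bases, shown with the start codon of mt-Atp6 and the stop codon of mt-Atp8 in capitals.
mt-Atp8 and mt-Atp6 (chrM:7927-7969, plus strand): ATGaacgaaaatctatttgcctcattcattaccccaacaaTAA
mt-Nd6, a complex I subunit and the only protein gene of the minus strand, had 28.1% G and 5.97% C, while the 12 other protein genes had 5.88% to 16.1% G and 22.1% to 29.97% C.

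How well a member can be counted may differ along the chromosome. Reads with several alignments were not counted, and pieces of mitochondrial DNA have been copied into the nucleus. For each member, every window of 51 bases, the read length, was searched for an exact copy in the nuclear transcripts of GENCODE M21. Copies were found for 100% of the windows of mt-Co2, 99.9% of mt-Co3, 99.5% of mt-Atp6, 98.8% of mt-Nd4l and 98.0% of mt-Nd3. The share was 62.2% for mt-Nd4, 50.6% for mt-Co1, 7.996% for mt-Nd2, 7.22% for mt-Nd5 and 0.979% for mt-Rnr2, and it was 0% for the other 27 members. Nuclear sequence outside annotated transcripts was not searched here. The first 51 bases of mt-Co2, which occur in a nuclear transcript, are shown beside those of mt-Cytb, which do not.
mt-Co2 (chrM:7013-7063, plus strand): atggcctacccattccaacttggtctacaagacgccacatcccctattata
mt-Cytb (chrM:14145-14195, plus strand): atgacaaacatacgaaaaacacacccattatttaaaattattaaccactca

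Levels per gene length, in CPM per kb, spread over 4 orders of magnitude. In Cre- mice mt-Co1, a core subunit of cytochrome c oxidase, was first of all genes in the files with 42784 CPM per kb, and mt-Cytb of complex III followed with 41475 CPM per kb. The complex I genes mt-Nd1 and mt-Nd2 came next with 22257 and 21114 CPM per kb, and the large rRNA mt-Rnr2 had 14369 CPM per kb. mtDNA genes made up 9 of the 10 highest genes in both genotypes, and 12 of the 20 highest in Cre- and 11 in Cre+ mice. The highest nuclear gene in Cre- mice was Scd1, a fatty acid desaturase, with 10937 CPM per kb, and Ucp1 had 2581 CPM per kb. The stretch from mt-Co2 to mt-Nd4l (chrM:7013-10173) holds 9 genes, and its 6 protein genes had 2.56 to 83.6 CPM per kb, against 10314 to 42784 CPM per kb for the 7 other protein genes. All but mt-Atp8 of these 6 had a nuclear copy for at least 98.0% of their windows, and mt-Atp8 had 2.56 CPM per kb with 0% of its windows copied in an annotated transcript. Reads with several alignments were left out, so the levels of genes with copies are uncertain, and what sets the low values of these 6 genes was not tested. In Cre- mice the tRNA genes of the same stretch had 147 (mt-Tg), 155 (mt-Tr) and 0 CPM per kb (mt-Tk). The median of the plus-strand tRNA genes was 164 CPM per kb.

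**Figure D1:**
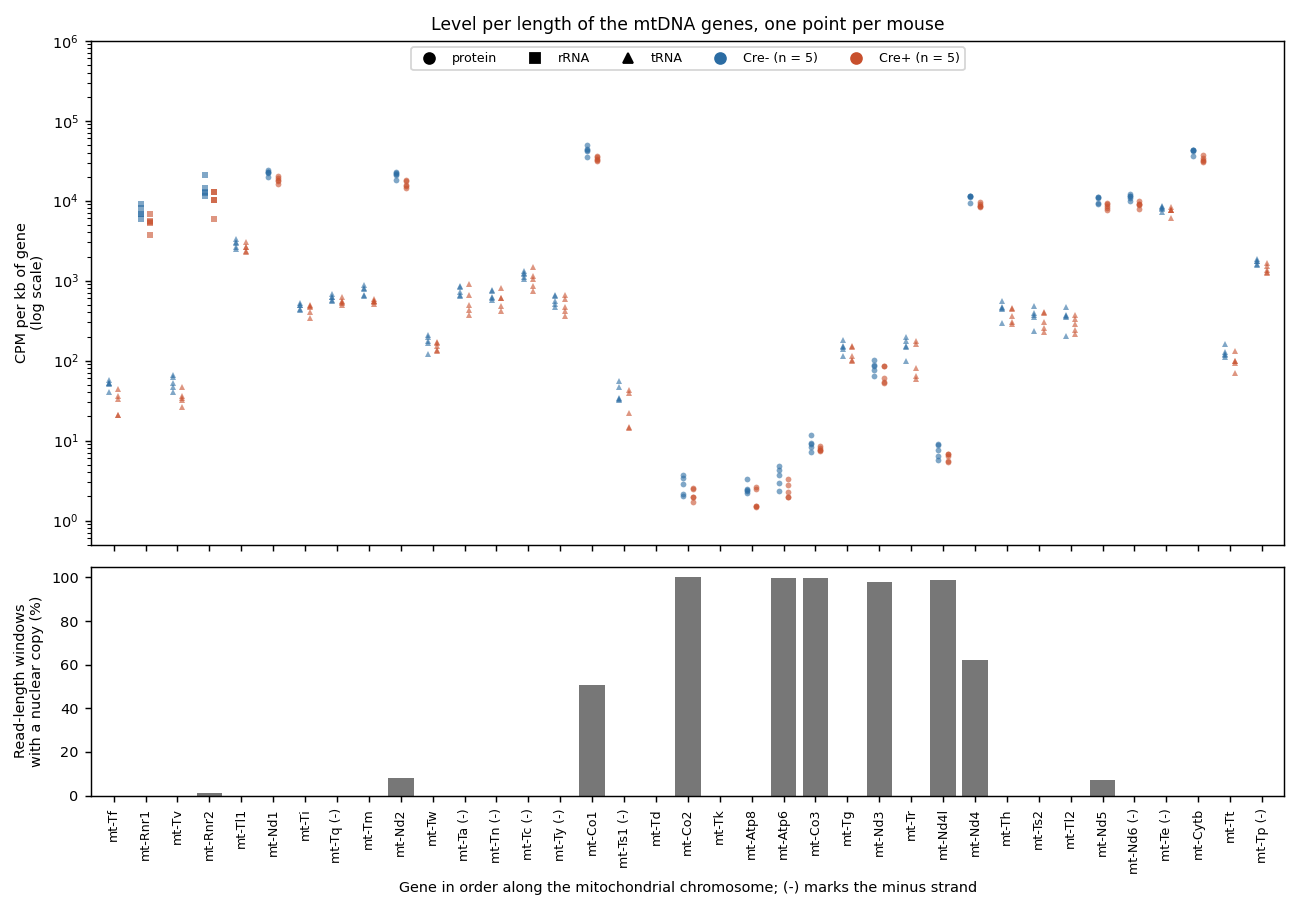
Upper panel, CPM per kb of gene (log scale) of the mtDNA genes in their order along the chromosome, 1 point per mouse (5 Cre-, 5 Cre+). mt-Td and mt-Tk were too low to be drawn there. Lower panel, percent of 51-base windows with an exact copy in an annotated nuclear transcript. The 6 protein genes from mt-Co2 to mt-Nd4l are at 83.6 CPM per kb or less in Cre- mice on average, and 5 of these 6 have copies for at least 98.0% of windows.

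Across the chromosome, 35 of the 37 genes passed the filter on low counts and were compared between genotypes by edgeR's quasi-likelihood test. All 35 were lower on average in Cre+ mice, with log2 fold changes from -0.71 (mt-Tf) to -0.11 (mt-Te) with a median of -0.31, while 49.7% of all 17690 genes tested were negative and their median was 0.00. The members are cut from shared precursors and share their libraries, so 35 negative values are not 35 separate observations. edgeR called 0 of the 35 at an adjusted p under 0.05 (0.13% of all genes tested were called lower). At an unadjusted p under 0.05, 14 were lower, against 5.95% of all genes tested (6.4% were higher). DESeq2, with its default settings, called 8 lower, against 1.22% of the genes it adjusted. Neither tool called a member higher, against 0.0339% of all genes with edgeR and 1.06% with DESeq2. The members called lower numbered 1 with limma voom (0.52% of all genes), 2 with edgeR and no filter on low counts (0.188%), and 1 with edgeR without Cre+ replicate 4 (1.2%). The groups did not overlap for 2 members, mt-Tm and mt-Nd6, both lower in Cre+ mice, against 1.47% of all genes tested.

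**Figure D2:**
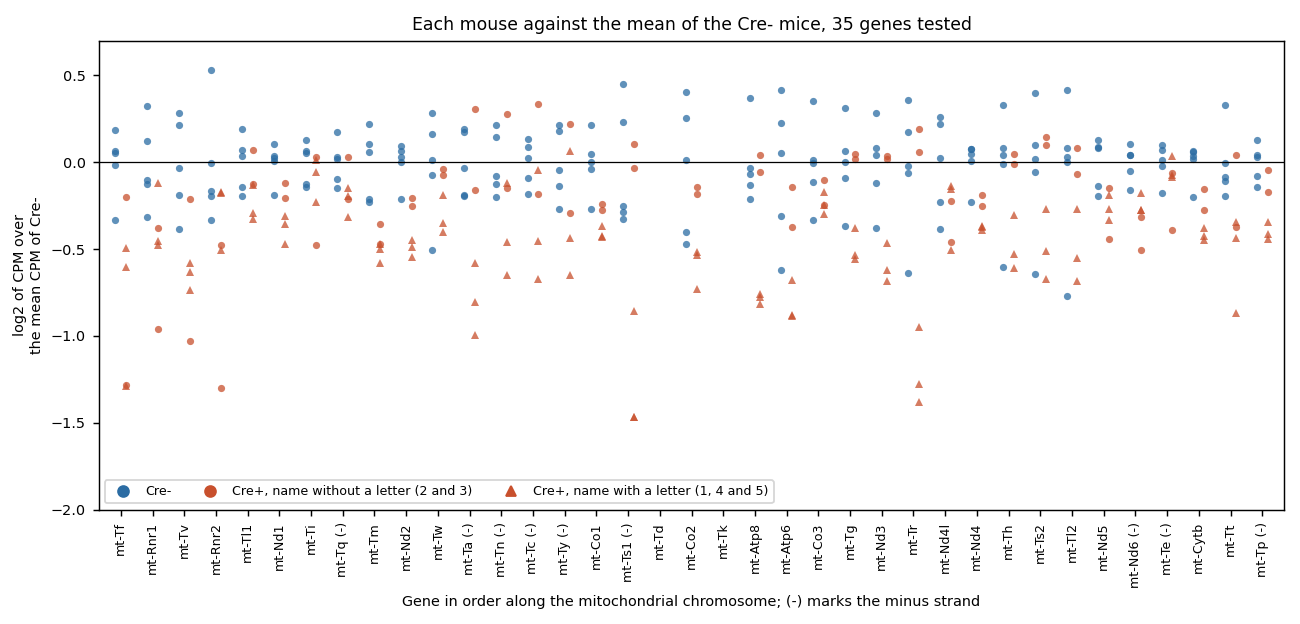
log2 of the CPM of each mouse over the mean CPM of the 5 Cre- mice, for the 35 mtDNA genes tested in their order along the chromosome; triangles are the 3 Cre+ libraries with an added letter. Cre+ mice lie mostly below 0, and only mt-Tm and mt-Nd6 have no overlap between genotypes.

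Among the protein genes, the 7 with high levels had log2 fold changes from -0.38 to -0.27. All 7 were lower at an unadjusted p under 0.05 in edgeR, against 5.95% of all genes tested. After adjustment edgeR called 0 of the 7, with adjusted p from 0.111 to 0.239. mt-Nd6 had 5568, 5951, 5169, 6216 and 5942 CPM in Cre- replicates 1 to 5 and 4763, 4641, 4062, 5096 and 4774 CPM in Cre+ replicates 1 to 5. Every Cre+ mouse was below every Cre- mouse, and its log2 fold change was -0.31 (SE 0.08, with an adjusted p of 0.142 in edgeR and 0.0342 in DESeq2). mt-Nd6 was the only protein gene with groups that did not overlap. Strand was not used in counting, so its counts can include reads from the plus strand.

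mt-Co1 had 76753, 68398, 54762, 66257 and 64337 CPM across Cre- and 49031, 54615, 55919, 51278 and 49250 CPM across Cre+ mice. Cre- replicate 3 lay below Cre+ replicate 3, and the other 4 Cre- mice lay above every Cre+ mouse. mt-Cytb had 49372, 49696, 41301, 48124 and 48743 CPM across Cre- and 36438, 42712, 39272, 35414 and 34799 CPM across Cre+ mice. Again Cre- replicate 3 was the lowest Cre- mouse, and here Cre+ replicate 2 lay above it.

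The complex I genes, whose products form part of the membrane arm of that enzyme, showed the same mice at the edge of the groups. mt-Nd1 had 21630, 22918, 18662, 21418 and 21873 CPM across Cre- and 15375, 18444, 19582, 17175 and 16678 CPM across Cre+ mice. mt-Nd2 had 21899, 22947, 18908, 22417 and 23408 CPM across Cre- and 15008, 19000, 18439, 15628 and 16091 CPM across Cre+ mice. mt-Nd2 had the most negative value of the 7, -0.38 (SE 0.09, with an adjusted p of 0.111 in edgeR and 0.0128 in DESeq2). For both genes the lowest Cre- mouse was replicate 3, and 1 Cre+ mouse lay above it.

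mt-Nd4 had 15973, 15930, 12913, 15616 and 15233 CPM across Cre- and 11698, 13260, 12693, 11551 and 11735 CPM across Cre+ mice. mt-Nd5 had 17108, 20026, 16442, 20549 and 19938 CPM across Cre- and 15642, 16957, 13829, 16478 and 14966 CPM across Cre+ mice. Both had Cre- replicate 3 as the lowest Cre- mouse and Cre+ replicate 2 as the highest Cre+ mouse. DESeq2 called mt-Nd2, mt-Cytb, mt-Nd4, mt-Co1 and mt-Nd6, and did not call mt-Nd1 (adjusted p = 0.0721 from DESeq2) or mt-Nd5 (adjusted p = 0.134 from DESeq2). The 6 protein genes from mt-Co2 to mt-Nd4l had means of 0.523 to 29.1 CPM in Cre- mice and log2 fold changes from -0.56 to -0.21, and DESeq2 called 0 of them.

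The 2 rRNAs, which form the core of the mitochondrial ribosome, varied more between mice than the 7 protein genes. mt-Rnr1, the small rRNA, had 8788, 6539, 5646, 7644 and 6440 CPM across Cre- and 6468, 5390, 3600, 5118 and 5032 CPM across Cre+ mice. mt-Rnr2, the large rRNA, had 32846, 18034, 19837, 22677 and 20263 CPM across Cre- and 20094, 16338, 9226, 20216 and 16044 CPM across Cre+ mice. Cre- replicate 1 was the highest and Cre+ replicate 3 the lowest mouse for both, and the groups overlapped. The coefficient of variation was 17.4% to 25.9% among Cre- and 20.02% to 27.3% among Cre+ mice, against 7.06% to 12.0% and 6.01% to 10.5% for the 7 protein genes. The log2 fold change was -0.45 for mt-Rnr1 (SE 0.15, with an adjusted p of 0.248 in edgeR) and -0.47 for mt-Rnr2 (SE 0.22, with an adjusted p of 0.420 in edgeR). Neither was called by edgeR or DESeq2. rRNA is not the target of poly(A) selection, and how much of it passed in each library was not tested.

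The tRNA genes are 59 to 75 bases long, close to the read length, and reads over them can come from uncut precursors or from neighbours, with strand not used in counting. Of 22 tRNA genes, 20 were tested, all negative, with a median log2 fold change of -0.26. mt-Td had 0 counts in all 10 mice, which allows up to 3 counts a library (0.0226 to 0.0326 CPM), and mt-Tk had 1 count, in Cre+ replicate 4. mt-Td and mt-Tk flank mt-Co2. Per length, the 8 minus-strand tRNA genes had a median of 703 CPM per kb in Cre- mice (40.3 to 8037) and the 14 plus-strand tRNA genes a median of 164 CPM per kb (0 to 2878).

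mt-Tm, the methionine tRNA gene between mt-Tq and mt-Nd2, had the smallest p of the 37 genes. It had 61.0, 45.3, 44.9, 56.5 and 54.7 CPM across Cre- and 37.9, 41.0, 37.9, 37.2 and 35.1 CPM across Cre+ mice. Its groups did not overlap, and its log2 fold change was -0.47 (SE 0.09, with an adjusted p of 0.0611 in edgeR and 0.00241 in DESeq2). mt-Tf and mt-Tv, which flank mt-Rnr1, were the other tRNA genes that DESeq2 called. mt-Tf had 3.93, 3.42, 2.75, 3.62 and 3.59 CPM across Cre- and 2.46, 3.01, 1.42, 2.28 and 1.42 CPM across Cre+ mice (edgeR gave -0.71 ± 0.21 (SE) on the log2 scale with an adjusted p of 0.194, and DESeq2 an adjusted p of 0.0376). mt-Tv had 4.28, 2.83, 3.23, 3.61 and 4.49 CPM across Cre- and 2.38, 3.19, 1.80, 2.46 and 2.22 CPM across Cre+ mice (edgeR gave -0.61 ± 0.17 (SE) on the log2 scale with an adjusted p of 0.183, and DESeq2 an adjusted p of 0.0310). In both genes a single Cre+ mouse, replicate 2, lay above the lowest Cre- mouse.

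The 2 most abundant tRNA genes had log2 fold changes near the upper end of the range. mt-Te, which lies between mt-Nd6 and mt-Cytb, had 546, 582, 491, 595 and 559 CPM across Cre- and 568, 532, 423, 523 and 528 CPM across Cre+ mice, for a log2 fold change of -0.11 (SE 0.08). mt-Tl1, between mt-Rnr2 and mt-Nd1, had 227, 189, 196, 246 and 221 CPM across Cre- and 197, 198, 226, 172 and 176 CPM across Cre+ mice, for a log2 fold change of -0.15 (SE 0.09). The genotypes overlapped for both. mt-Tp, at the end of the gene order, had 109, 126, 104, 117 and 118 CPM across Cre- and 90.5, 111, 102, 84.6 and 86.2 CPM across Cre+ mice, for a log2 fold change of -0.27 (SE 0.09, with an adjusted p of 0.223 in edgeR). Only Cre+ replicate 2 reached the range of the Cre- mice.

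The cluster of minus-strand tRNA genes between mt-Nd2 and mt-Co1 showed a wide spread among Cre+ mice. mt-Ta (alanine) had 58.5, 44.8, 45.0, 57.9 and 49.98 CPM across Cre- and 34.2, 63.3, 45.8, 25.8 and 29.3 CPM across Cre+ mice. mt-Tn (asparagine) had 54.7, 41.0, 43.1, 52.1 and 44.5 CPM across Cre- and 43.3, 57.1, 42.6, 29.97 and 34.3 CPM across Cre+ mice. The highest mouse for both was Cre+ replicate 2, and the lowest was Cre+ replicate 4. mt-Tc (cysteine) had 86.0, 73.6, 69.1, 83.3 and 79.7 CPM across Cre- and 75.9, 98.8, 69.1, 49.2 and 57.2 CPM across Cre+ mice. mt-Ty (tyrosine) had 43.04, 34.5, 31.5, 44.0 and 36.8 CPM across Cre- and 39.8, 44.3, 31.0, 24.3 and 28.03 CPM across Cre+ mice. Log2 fold changes of these 4 genes were -0.37, -0.18, -0.16 and -0.18, with SE of 0.15 to 0.23.

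Around mt-Nd1, mt-Ti (isoleucine) had 29.9, 34.6, 34.3, 30.4 and 36.2 CPM across Cre- and 33.4, 33.8, 23.8, 28.2 and 31.8 CPM across Cre+ mice. mt-Tq (glutamine) had 48.7, 39.1, 43.8, 44.2 and 40.5 CPM across Cre- and 37.9, 44.1, 37.3, 34.7 and 39.0 CPM across Cre+ mice. The groups overlapped in both. mt-Tw (tryptophan), after mt-Nd2, had 13.1, 8.22, 11.8, 14.2 and 11.1 CPM across Cre- and 10.2, 11.4, 11.1, 9.15 and 8.82 CPM across Cre+ mice, with the lowest mouse in Cre-.

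The run mt-Th, mt-Ts2 and mt-Tl2 between mt-Nd4 and mt-Nd5 ordered the mice alike. mt-Th (histidine) had 19.5, 29.5, 31.5, 30.6 and 37.4 CPM across Cre- and 24.04, 30.7, 29.5, 19.5 and 20.6 CPM across Cre+ mice. mt-Ts2 (serine) had 13.9, 21.9, 23.2, 20.8 and 28.5 CPM across Cre- and 18.0, 23.95, 23.2, 13.6 and 15.2 CPM across Cre+ mice. mt-Tl2 (leucine) had 14.6, 25.4, 26.3, 24.8 and 33.1 CPM across Cre- and 20.6, 26.2, 23.7, 15.4 and 16.9 CPM across Cre+ mice. In all 3 genes Cre- replicate 5 was the highest mouse and Cre- replicate 1 was among the lowest.

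mt-Tr (arginine) and mt-Tg (glycine) flank mt-Nd3. mt-Tg had 7.76, 9.39, 10.001, 10.5 and 12.4 CPM across Cre- and 7.70, 10.1, 10.4, 6.80 and 6.91 CPM across Cre+ mice. mt-Tr had 6.77, 11.9, 10.1, 10.4 and 13.5 CPM across Cre- and 5.45, 12.01, 10.9, 4.34 and 4.05 CPM across Cre+ mice. Their log2 fold changes were -0.25 (SE 0.15) and -0.52 (SE 0.33), with overlapping groups. mt-Tt (threonine), after mt-Cytb, had 7.92, 7.46, 8.52, 8.05 and 10.7 CPM across Cre- and 6.72, 8.80, 6.59, 6.32 and 4.67 CPM across Cre+ mice, for a log2 fold change of -0.37 (SE 0.15, with an adjusted p of 0.362 in edgeR). mt-Ts1, the other serine tRNA gene beside mt-Ts2, had 1.00 to 3.81 CPM over all mice and a log2 fold change of -0.59 (SE 0.32).

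The share of all counts from the 37 genes was 24.8, 22.2, 19.7, 22.1 and 22.1% in Cre- and 18.0, 19.4, 18.2, 18.5 and 17.7% in Cre+ mice. All 5 Cre+ mice lay below the 5 Cre- mice, with means of 22.2 ± 1.79% and 18.4 ± 0.657% (SD, n = 5 each). The tRNA genes took 0.132 ± 0.00582% and 0.123 ± 0.00957% (SD, n = 5 each), with overlap. The 9 minus-strand genes, with reads of either strand counted, took between 0.606% and 0.685% in Cre- mice, against 0.494% to 0.607% for the Cre+ group. Within the mtDNA counts of Cre- and Cre+ mice, mt-Co1 made up 28.98% and 29.04%, and mt-Cytb 20.88% and 21.03%. The rRNAs made up 13.003 ± 2.24% and 12.02 ± 3.08%, and the tRNAs 0.598 ± 0.0390% and 0.668 ± 0.0423% (SD, n = 5 each). The tRNA part ranged from 0.540% to 0.632% in Cre- and from 0.609% to 0.715% in Cre+ mice. These shares were not tested.

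**Figure D3:**
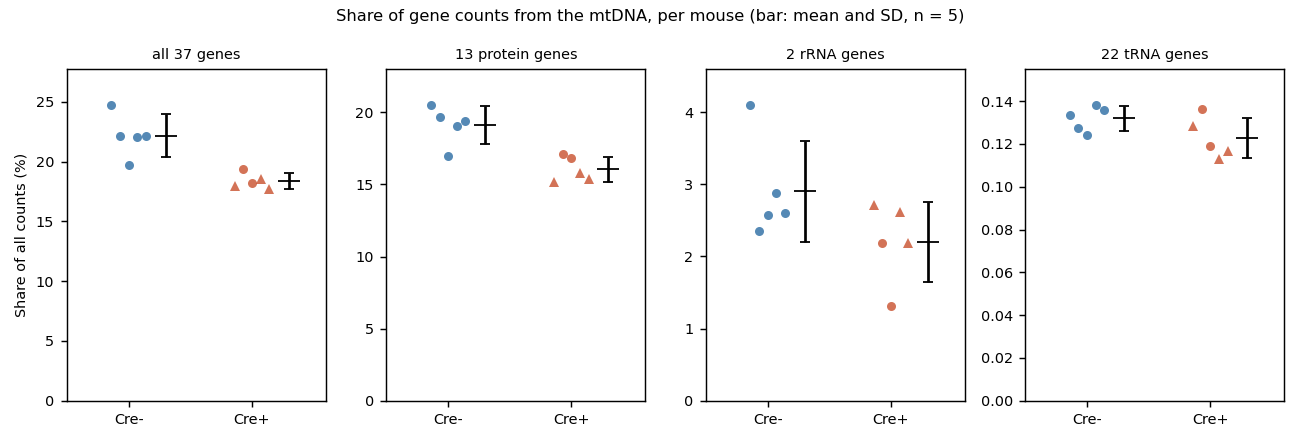
Share of all counts (%) from all 37 mtDNA genes, the protein genes, the rRNA genes and the tRNA genes, 1 point per mouse with mean and SD (n = 5 per genotype); triangles are Cre+ libraries with an added letter. The share of all 37 genes is 19.7% or more in Cre- and 19.4% or less in Cre+ mice. The genotypes overlap for the protein, rRNA and tRNA genes taken alone.

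Ratios between members compared their counts within a mouse. Strand was not used in counting, so no ratio here can measure the balance between the strands. The log2 ratio of mt-Rnr1 to mt-Rnr2 was -1.68 ± 0.178 in Cre- and -1.65 ± 0.223 in Cre+ mice (SD, n = 5 each), a difference of 0.03 (SE 0.128, two-sided exact permutation p = 0.810). That of mt-Rnr2 to mt-Nd1, adjacent on the same strand apart from mt-Tl1, differed by -0.20 (SE 0.301, two-sided exact permutation p = 0.571). That of mt-Nd6 to mt-Nd5, neighbours on opposite strands, was -1.70 ± 0.0565 in Cre- and -1.74 ± 0.0847 in Cre+ mice (SD, n = 5 each), a difference of -0.04 (SE 0.0455, two-sided exact permutation p = 0.492). Adjusted over the 3 ratios, the p was 0.810 for each, and the smallest p that 5 against 5 mice allow is 0.00794. The direction of the first and second ratio depended on single mice, Cre+ replicate 3 in both (-0.04 and 0.03 without it) and Cre- replicates 1 and 3 in the first (-0.02 and -0.00 without them).

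The identifiers of Cre+ replicates 1, 4 and 5 carry an added letter, which no Cre- library has. All 3 of these libraries were below both other Cre+ libraries in 20 of the 35 members (11.3% of all genes tested) and below every Cre- mouse in 20 (5.23% of all genes tested). Both other Cre+ libraries were below every Cre- mouse in 4 members, namely mt-Rnr1, mt-Rnr2, mt-Tm and mt-Nd6 (7.9% of all genes tested). For the rRNAs the mean share of counts was higher in the 3 lettered libraries, 2.51%, than in Cre+ replicates 2 and 3, 1.75%. Cre+ replicate 3 was the lowest at 1.32%, while Cre+ replicate 2, at 2.188%, lay just above the lettered replicate 5, at 2.187%. Leaving out replicates 1, 4 and 5, the median log2 fold change was -0.16, with a range from -0.84 to 0.12, and 10 members had a positive value. Those 10 were mt-Nd3 and 9 tRNA genes, while the 7 high-level protein genes had -0.41 (mt-Nd6) to -0.17 (mt-Nd1). Then 5 members were lower at an unadjusted p under 0.05, against 5.78% of the genes tested in that fit. They were mt-Tf, mt-Rnr1, mt-Rnr2, mt-Tm and mt-Nd6, so mt-Nd6 was the only protein gene among them. What the letter marks was not tested.

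**Figure D4:**
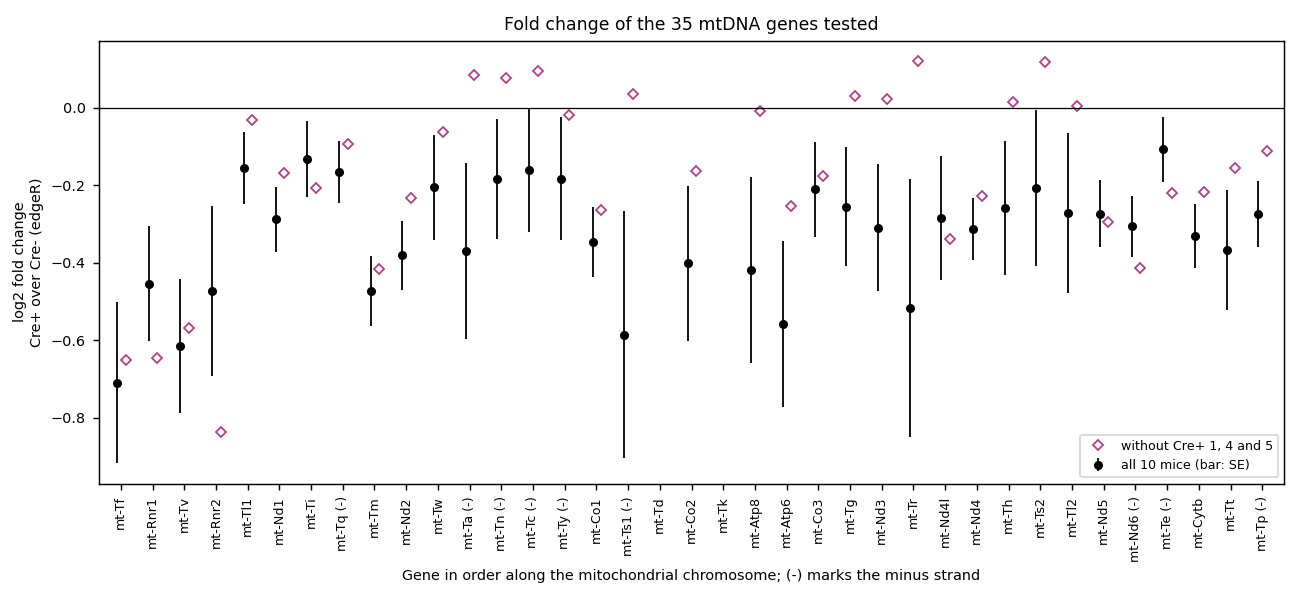
log2 fold change of Cre+ over Cre- (edgeR) for the 35 mtDNA genes tested in their order along the chromosome, with SE for all 10 mice, and as open diamonds without Cre+ replicates 1, 4 and 5. All values with 10 mice are below 0, from -0.71 to -0.11, and 10 diamonds lie above 0.

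Nuclear genes that serve the mtDNA were measured in the same mice. Of all genes tested, 5.95% had an unadjusted p under 0.05 on the lower side and 6.4% on the higher side. After adjustment edgeR called 0.13% lower and 0.0339% higher, and DESeq2 called 1.22% and 1.06% of the genes it adjusted. For lists of 22 to 71 genes, 0 calls is near these shares and does not show that the genes are unchanged. Of 39 tested genes for mtDNA transcription, RNA processing and maintenance, edgeR and DESeq2 called 0, while 1 was lower and 5 were higher by unadjusted p (under 0.05), and the median log2 fold change was 0.02. Ptcd1, which takes part in mitochondrial RNA metabolism, had 29.7 ± 1.77 CPM across Cre- and 34.8 ± 1.98 CPM across Cre+ mice (SD, n = 5 each), 0.23 on the log2 scale (SE 0.07, with an adjusted p of 0.189 in edgeR). Next by p in this list, Polrmt had 0.32 (SE 0.10, with an adjusted p of 0.242 in edgeR). Mterf3 was lower, at -0.21 (SE 0.08, with an adjusted p of 0.274 in edgeR). Of 22 tested genes for mitochondrial aminoacyl-tRNA synthetases and the glutamyl-tRNA amidotransferase, which charge these tRNAs, both tools called 0, while 0 were lower and 2 higher by unadjusted p (under 0.05), and the median was 0.00. Lars2, the leucyl-tRNA synthetase, had 220, 184, 197, 163 and 183 CPM across Cre- and 725, 199, 209, 431 and 400 CPM across Cre+ mice. Its 3 high values were those of the lettered libraries, and its log2 fold change was 1.05 (SE 0.34, with an adjusted p of 0.259 in edgeR). Of 71 tested nuclear subunits of complexes I, III, IV and V, both tools called 0, while 1 was lower and 4 higher by unadjusted p (under 0.05), and the median was 0.05. By smallest p in this list, Cox7c had 0.33 on the log2 scale (SE 0.12, with an adjusted p of 0.282 in edgeR). Ndufa10 was lower, at -0.18 (SE 0.06, with an adjusted p of 0.285 in edgeR). Atp5mc2, a subunit of ATP synthase, had 0.23 (SE 0.09, with an adjusted p of 0.309 in edgeR).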

How the data were processed

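Poly(A)-selected RNA of iBAT was sequenced as paired reads of 51 bases. The authors used Trimmomatic for trimming, STAR for alignment to GRCm39 (versions of both not given in the sources used here), then featureCounts 2.0.1 with GENCODE M28 for counting. The deposited values are raw counts, with each mate counted by itself, strand unused and reads with several alignments left out, so genes with nuclear copies can lose reads. For RNA isolation, RNeasy is named in the labels and PeqGOLD in the paper.

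Here edgeR 4.0.16 (R 4.3.3) was fitted to all 17690 genes passing filterByExpr (minimum count 10, minimum total 15), with TMM, robust quasi-likelihood tests, no covariate and Benjamini-Hochberg adjustment at 0.05, after a check on simulated counts. SE is the log2 fold change over the square root of F. DESeq2 1.42.0, the tool of the study, and limma 3.58.1 voom were alternatives, with other scalings, filters, a replicate block and left-out libraries. DESeq2 was first run with independent filtering at 0.05 instead of its default of 0.1 and was then set to the default, as planned, after its counts had been seen. It called 8 mtDNA genes at either setting. BLAST 2.17.0 and exact matching found nuclear copies. Floors cover counting error only, while SE includes the spread between mice. All members were named, with values per mouse at 100 CPM per kb or more. Members and lists were chosen with earlier results of these data known. Of the nuclear lists, 39 of 40, 22 of 22 and 72 of 75 genes matched.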

Additional observations from a re-analysis of the deposited data

Results flagged for a closer look

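In 3 of 84 groups of 5 mice tested, a single mouse lay far from the others, where chance gives about 1 in 20 groups. mt-Nd4 had 12913 CPM in Cre- replicate 3 and 15233 to 15973 CPM in the other Cre- mice. mt-Cytb had 41301 CPM in Cre- replicate 3 and 48124 to 49696 CPM in the other Cre- mice. mt-Atp8, with few counts, had 0.675 CPM in Cre- replicate 5 and 0.452 to 0.512 CPM in the other Cre- mice. mt-Nd4 and mt-Cytb share the mouse, and the cause was not tested.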

How the results depend on the processing

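The count of mtDNA genes called lower, 0 by edgeR, was 8 with DESeq2 (8 with independent filtering at 0.05), 1 with limma voom with sample quality weights, 2 with no filter on low counts, 1 without Cre- replicate 2 and Cre+ replicate 4, the mice high in muscle transcripts, and 0 to 1 when each mouse was left out, the 1 being without Cre+ replicate 4. mt-Tm was called in each of these (adjusted p = 0.0463 with voom, 0.0110 with edgeR and no filter, 0.0321 with edgeR without Cre+ replicate 4), and mt-Nd2 with edgeR and no filter (adjusted p = 0.0344). The 14 genes lower at an unadjusted p under 0.05 became 12 to 22 when each mouse was left out (22 without Cre+ replicate 2) and 5 without the 3 lettered libraries. The 2 genes with groups that did not overlap became 1 with library totals, 4 without the lettered libraries and 2 to 10 when each mouse was left out (9 without Cre- replicate 3, 10 without Cre+ replicate 2, 4 without Cre+ replicate 3). For these changed counts the shares over all genes were not taken, apart from 5.78% for unadjusted p without the lettered libraries. The changes can therefore not be read as particular to mtDNA genes. All 35 log2 fold changes stayed negative in every setting except without the lettered libraries, where mt-Ta was 0.086, mt-Tn 0.077, mt-Tc 0.095, mt-Ts1 0.037, mt-Tg 0.031, mt-Nd3 0.022, mt-Tr 0.12, mt-Th 0.014, mt-Ts2 0.12 and mt-Tl2 0.0039. With nuclear counts as the denominator, the difference in share was -4.96 percentage points for the protein genes, -0.0193 for the tRNA genes and -6.02 for all 37 genes. Leaving out each mouse gave -0.042 to 0.11 for the log2 ratio of mt-Rnr1 to mt-Rnr2 and -0.33 to 0.034 for that of mt-Rnr2 to mt-Nd1. These alternatives for groups that do not overlap and for unadjusted p, and the second DESeq2 setting, were chosen after seeing the data. The cause of these shifts was not tested.

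Replicate numbers did not pair the mice, with same-number correlations of -0.20 to 0.22. With the replicate number as a block, edgeR called 0 mtDNA genes, 15 had an unadjusted p under 0.05 on the lower side, and no call changed. The share over all genes was not taken with this block. mt-Td and mt-Tk had too few counts for a test, and why was not tested. mt-Co2, mt-Atp6, mt-Co3, mt-Nd3 and mt-Nd4l have nuclear copies for nearly all windows, so their counts are uncertain. mt-Atp8 was as low with 0% of windows copied in annotated transcripts, and other nuclear sequence was not searched.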
